A study of Mus musculus with 21 samples.

Results

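The genes described here encode the transforming growth factor β (TGF-β) and bone morphogenetic protein (BMP) pathway: BMP, growth differentiation factor (GDF), TGF-β and activin ligands, their receptors, the SMAD proteins, antagonists of the ligands, and the Id genes. They were taken by symbol: every row of the expression table whose name begins with Bmp or Gdf and a digit, Bmpr, Smad and a digit, Tgfb and a digit, Tgfbr, Acvr or Inhb, together with a few antagonists (Bambi, Nog, Grem1 and Chrd among them) and the Id genes. This gave 56 of 21913 rows. The rule matches names only and uses no measured value, but it was set with earlier results of these data known. For 4 of the 56 the name matches but the role is another, since Bmp1 encodes a protease, Bmp2k a kinase, and Tgfb1i1 and Tgfbrap1 other binding partners.

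Ligands of this family are secreted dimers that join type II and type I receptor serine/threonine kinases. The type II receptor activates the type I receptor, which then phosphorylates receptor-regulated SMADs. SMAD1, SMAD5 and SMAD9 carry BMP signals, while SMAD2 and SMAD3 carry TGF-β, activin and Nodal signals. Both kinds bind SMAD4 and enter the nucleus, where the Id genes are classic BMP targets. In islets, signalling through BMP receptors and through the activin-like receptor ALK7, encoded by Acvr1c, has been tied to insulin secretion and β-cell mass.

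The study measured RNA in β-cells of adult male mice after loss of Ldb1, a cofactor that joins LIM-domain transcription factors into larger complexes, or of Isl1, one of those LIM-homeodomain factors. There were 18 libraries of sorted, lineage-marked β-cells: 8 Ldb1-KO, 5 Isl1-KO and 5 WT. Ldb1-KO mice had the genotype Ldb1L/L and Isl1-KO mice Isl1L/L, on a mixed SV/129 and C57Bl/6 background. All groups, WT included, carried MIP-CreERTm, a tamoxifen-inducible Cre recombinase under a mouse insulin promoter, as well as the Rosa26LsLeYFP/LsLeYFP reporter, and all were given tamoxifen. Ldb1-KO and WT mice received 150 µg/g by gavage 5 times from day 28 and 5 times again from day 35, and were sampled at day 56. Isl1-KO mice received 100 µg/g 5 times from day 28 and were sampled at day 49. In the comparison of Isl1-KO with WT, and of the knockouts with each other, genotype, age and tamoxifen therefore cannot be told apart. Nothing in the labels ties each library to a mouse of its own, and p-values here measure only how these libraries spread, which may be technical.

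Values are log2(normalized value + 1) as deposited, and a difference between groups is a difference of means on that scale. A gene was called when its adjusted p from limma, fitted over the 13501 genes whose normalized value averaged at least 1, was under 0.05. The smallest value above 0 differed by library and lay between 0.72 and 1.32, so a value in that range can stand for the fewest reads its library can show. Levels are compared between samples and not between genes, since gene lengths were not used.

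The targeted gene Ldb1 averaged 6.40 ± 0.42 in Ldb1-KO libraries (SD, n = 8) and 7.51 ± 0.22 in WT libraries (n = 5), a fall of 1.11 (SE 0.18, adjusted p = 4.35e-05). Isl1 averaged 9.33 ± 0.26 in Isl1-KO libraries and 9.55 ± 0.11 in WT libraries (SD, n = 5 each), with an adjusted p of 0.431. Isl1 was higher in Ldb1-KO than in WT libraries by 1.01 (adjusted p = 2.78e-05). A value for the whole gene does not check a deletion of part of it. The 12 β-cell markers were above 0 in every library, with a log2 summed level of 17.72 to 18.71 in Ldb1-KO, 18.46 to 19.08 in Isl1-KO and 19.10 to 19.39 in WT libraries. Of these 12 markers, 9 were lower in Ldb1-KO and 6 in Isl1-KO than in WT libraries. Of 4 tested α-cell markers, 3 were higher in Ldb1-KO and 1 in Isl1-KO than in WT libraries, and 0 were lower. Among the α-cell markers Ttr had the highest value, 15.66, and Irx1 was above 0 in 4 of 18 libraries. The summed level of the 5 α-cell markers in the table was 13.32 to 15.69 in Ldb1-KO, 12.86 to 13.86 in Isl1-KO and 10.92 to 11.77 in WT libraries. That of 9 duct markers was 10.23 to 11.32 in Ldb1-KO, 10.42 to 11.41 in Isl1-KO and 9.87 to 10.43 in WT libraries, and 4 of the 9 were higher and 0 lower in each knockout than in WT libraries. For 12 mesenchymal markers it was 1.63 to 4.70 in Ldb1-KO, 2.48 to 4.48 in Isl1-KO and 4.22 to 5.89 in WT libraries. Of 3 tested mesenchymal markers, 1 was lower in Ldb1-KO and 2 in Isl1-KO than in WT libraries, and 0 were higher. Of the mesenchymal markers, Thy1 was above 0 in 1 of 18 libraries, Col1a1 in 2, Col3a1 in 12, Col6a3 in 15 and Sparcl1 in 16. Endothelial markers spanned 4.06 to 5.64 in Ldb1-KO, 4.23 to 6.09 in Isl1-KO and 4.22 to 5.67 in WT libraries. Of 9 endothelial markers in the table, Esam was above 0 in all 18 libraries, Egfl7 in 17, Pecam1 and Kdr in 11 each, Cdh5 in 2 and Tie1 in 0. Of 6 tested, 1 was lower in Ldb1-KO and 0 in Isl1-KO, and 0 were higher. Immune markers summed to 5.33 to 8.10 in Ldb1-KO, 6.67 to 8.33 in Isl1-KO and 7.18 to 8.22 in WT libraries. Of 5 tested, 0 were called. The 4 markers of δ, PP and ε cells summed to 9.86 to 11.01, 8.71 to 11.48 and 8.67 to 9.995 in the same order. Of these, 1 was higher in Ldb1-KO and 0 in Isl1-KO, and 0 were lower. Acinar markers summed to 6.33 to 11.67 in Ldb1-KO libraries, with replicates 2 (11.67) and 6 (10.82) the highest, and to 5.58 to 10.10 in Isl1-KO libraries, with replicate 5 the highest. WT replicate 1 was at 16.27 and the other WT libraries at 5.58 to 6.34. Of the calls against WT among the 56 genes, leaving out WT replicate 1 ended that of Smad5 alone. Isl1-KO replicates 1 to 3 lay apart from replicates 4 and 5 on the second principal component. Libraries also differed in the size of 1 read step, the inverse of depth, and 5 Ldb1-KO, 1 Isl1-KO and 2 WT libraries were deeper than the rest. The part of these differences in the results below was not tested, except where a value without those libraries is given.

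Promoter sequences from RefSeq (mouse build GRCm38.p6) were found for 39 of the 56 genes. Of these, the 4 below belong to genes whose RNA differed from WT: 3 type I receptors, of which Acvr1c and Tgfbr1 fell and Bmpr1b rose, and Id4, which fell in Ldb1-KO libraries alone of the comparisons with WT. Each runs 5′ to 3′ on the gene's strand, from 250 bases before to 50 bases after the start furthest upstream. They are shown because receptors of the same class went in opposite directions. Capitals mark matches, on either strand, to CAGAC and GGCGCC, both known as SMAD-binding motifs, and to CTAATNG, a motif of LIM-homeodomain factors. They lie at chr2:58357709-58358008 on the minus strand (Acvr1c), chr4:47352972-47353271 on the plus strand (Tgfbr1), chr3:141982215-141982514 on the minus strand (Bmpr1b) and chr13:48260866-48261165 on the plus strand (Id4).
Acvr1c: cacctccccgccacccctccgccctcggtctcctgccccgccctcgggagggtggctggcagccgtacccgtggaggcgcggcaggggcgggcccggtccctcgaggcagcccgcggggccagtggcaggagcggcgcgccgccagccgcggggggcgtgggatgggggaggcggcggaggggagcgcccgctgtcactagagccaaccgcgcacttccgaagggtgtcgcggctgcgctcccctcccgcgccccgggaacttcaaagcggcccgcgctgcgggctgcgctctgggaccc
Tgfbr1: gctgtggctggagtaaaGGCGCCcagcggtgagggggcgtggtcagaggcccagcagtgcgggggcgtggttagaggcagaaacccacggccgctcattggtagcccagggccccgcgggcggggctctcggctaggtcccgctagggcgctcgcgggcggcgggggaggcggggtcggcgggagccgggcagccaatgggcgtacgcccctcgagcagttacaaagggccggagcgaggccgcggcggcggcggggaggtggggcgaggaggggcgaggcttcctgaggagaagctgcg
Bmpr1b: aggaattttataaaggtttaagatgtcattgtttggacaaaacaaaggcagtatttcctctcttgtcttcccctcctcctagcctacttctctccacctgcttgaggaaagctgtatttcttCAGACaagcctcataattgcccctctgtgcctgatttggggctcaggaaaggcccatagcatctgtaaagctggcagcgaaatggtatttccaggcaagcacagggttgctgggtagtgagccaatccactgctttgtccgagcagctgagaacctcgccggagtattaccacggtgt
Id4: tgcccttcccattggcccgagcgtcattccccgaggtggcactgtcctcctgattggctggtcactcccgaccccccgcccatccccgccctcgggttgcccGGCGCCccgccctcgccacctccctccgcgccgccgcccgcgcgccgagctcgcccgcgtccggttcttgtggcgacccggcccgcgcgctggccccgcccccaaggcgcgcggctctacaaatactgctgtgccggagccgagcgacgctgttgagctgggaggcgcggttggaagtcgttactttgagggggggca
GGCGCC stands at bases 18 to 23 of the Tgfbr1 window and at bases 103 to 108 of the Id4 window. CAGAC stands once in the Bmpr1b window, at bases 123 to 127. The Acvr1c window held none of the 3 motifs, and no 2 matches overlapped. Among the 39 promoters, 17 (43.6%) held CAGAC, against 49.7% of 27025 mouse promoters of the same length. GGCGCC was in 13 (33.3%), against 12% of all promoters, and CTAATNG in 2 (5.13%), against 5.89%. The shares were neither tested nor adjusted for base composition, and GGCGCC holds only G and C. These matches describe the letters and do not show binding.

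Of the 56 genes, 24 were above 0 in all 18 libraries, 24 in some, and 8 were listed at 0 throughout. Those 8 were the ligands Bmp10, Bmp15, Gdf2, Gdf5, Gdf7, Inhbc and Inhbe, and Id1. The filter on low values left 31 genes to test and 25 untested. Around that limit, Bmp8b had the highest mean normalized value of those left out, 0.603, and Tgfbr2 the lowest of those tested, 1.09. No untested gene exceeded a log2 value of 3.17 in any library, which Gdf10 reached in Ldb1-KO replicate 1. Bmp4, a canonical BMP ligand, was above 0 in 1 library, at 0.83 in Ldb1-KO replicate 5.

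**Figure D1:**
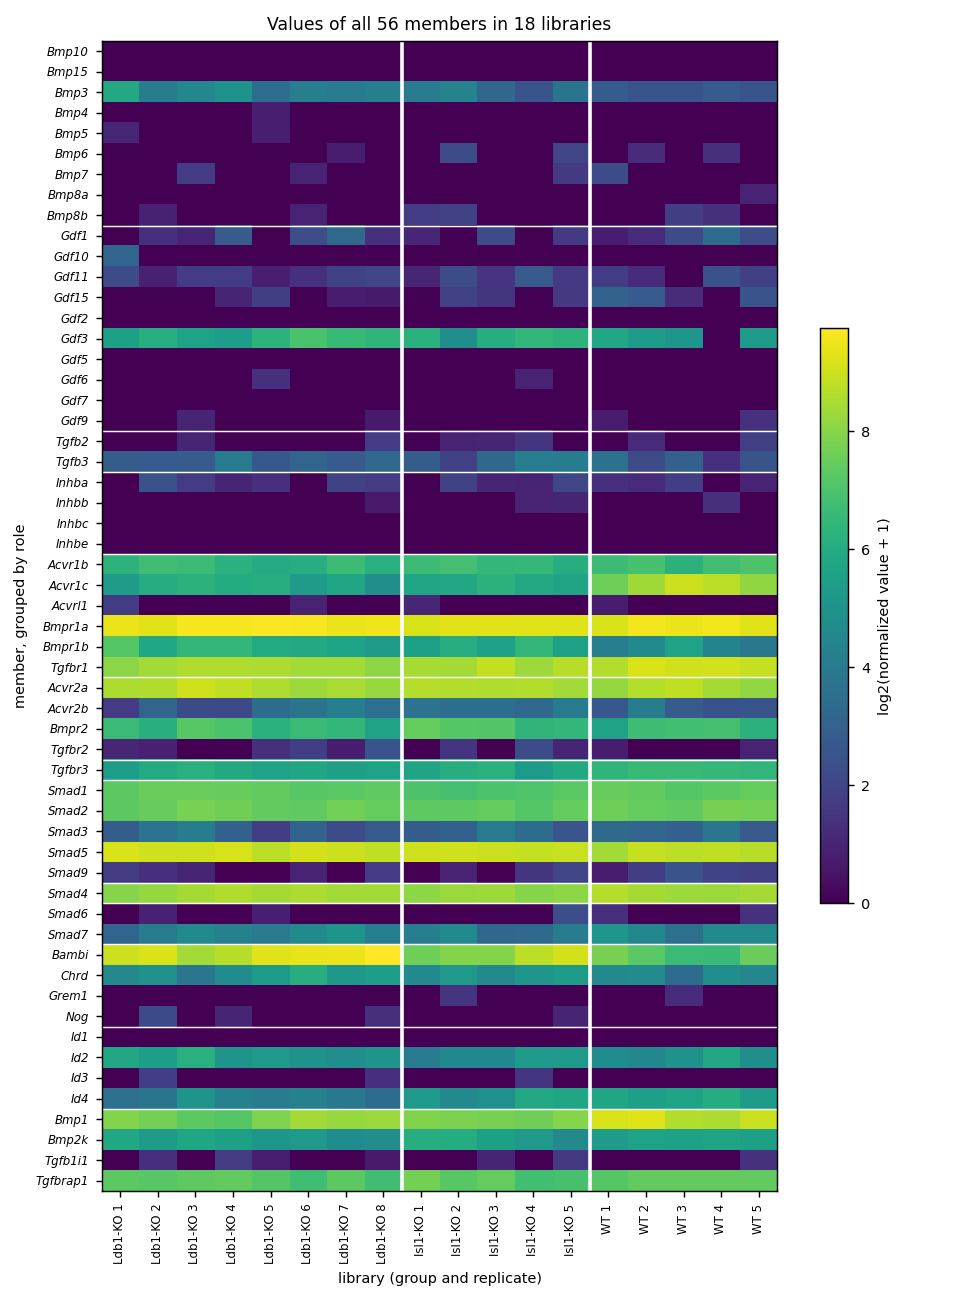
Values of the 56 genes (rows, grouped by role with white lines between roles) in each of 18 libraries (columns, with Ldb1-KO, Isl1-KO and WT separated by white lines), coloured by log2(normalized value + 1). Most ligand rows are dark. The bright rows include receptors, SMADs, Bambi and, matched by name but of another role, Bmp1 and Tgfbrap1, while Tgfbr2, Acvrl1, Smad6 and Smad9 are dark.

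In Ldb1-KO against WT libraries, 9 of the 31 tested genes were called (29.0%), beside 21.7% of all genes tested. The 4 higher ones were Bambi, Bmp3, Bmpr1b and Smad5 (10.6% of all genes were called higher), and the 5 lower ones were Acvr1c, Id4, Bmp1, Tgfbr3 and Tgfbr1 (11.0% of all genes). In Isl1-KO against WT libraries 6 were called (19.4%), beside 15.4% of all genes. These were Bambi and Bmpr1b, which were higher, as were 7.02% of all genes, and Acvr1c, Bmp1, Tgfbr3 and Tgfbr1, which were lower, as were 8.39% of all genes. The share called was thus somewhat above that of all genes in both comparisons, and neither gap was tested. Without the genes whose name matches but whose role is another, the shares were 28.6% in Ldb1-KO and 17.9% in Isl1-KO. The 6 were called with the same sign in Ldb1-KO, but the 2 comparisons share their 5 WT libraries. The groups did not overlap for 7 of the 31 genes in Ldb1-KO against WT (10.8% of all genes) and for 4 in Isl1-KO against WT (10.7% of all genes). The median difference of the tested genes was 0.02 in Ldb1-KO, against -0.01 over all genes, and -0.15 in Isl1-KO, against -0.03 over all genes.

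**Figure D2:**
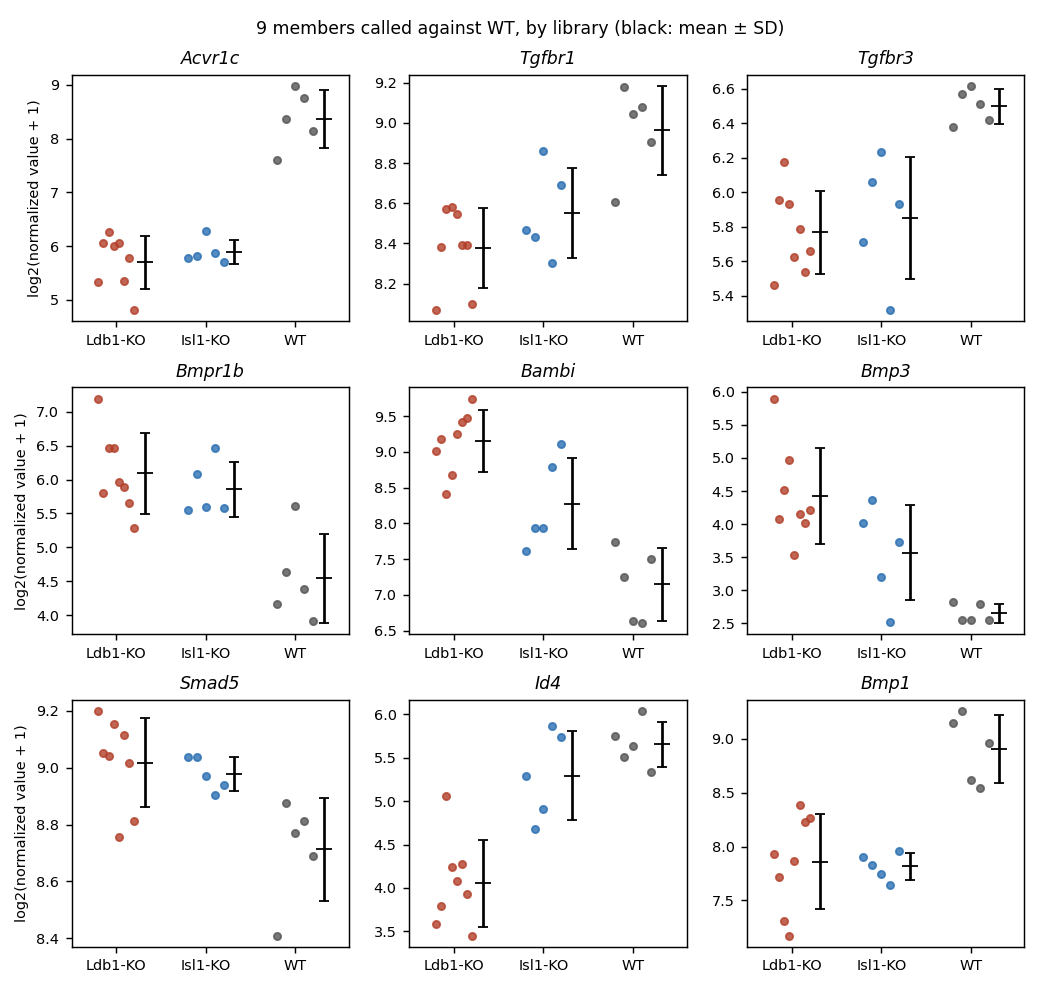
Log2(normalized value + 1) of the 9 genes called against WT, in each Ldb1-KO (red), Isl1-KO (blue) and WT (grey) library, with the mean and SD in black beside each group; the vertical axes do not start at 0. Acvr1c lies below 6.3 in all knockout libraries and above 7.5 in all WT libraries, and Id4 lies at 5.06 or below in Ldb1-KO libraries and at 5.34 or above in WT libraries.

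Ligand genes were mostly near the detection limit, and Bmp3 was the only one called. Tested were 1 of 9 BMP ligands, 4 of 10 GDFs, 1 of 2 TGF-β ligands, and 1 of 4 activin and inhibin β subunits. Bmp3 encodes a BMP family member known, in bone, for opposing other BMPs. Its lowest, median and highest values were 3.53, 4.19 and 5.90 in Ldb1-KO libraries. It was at 4.02, 4.36, 3.21, 2.53 and 3.74 in Isl1-KO replicates 1 to 5 and at 2.83, 2.55, 2.55, 2.79 and 2.55 in WT replicates 1 to 5. All Ldb1-KO libraries lay above all WT libraries, while Isl1-KO replicate 4 lay below every WT library and the other Isl1-KO libraries above them. The difference was 1.77 (SE 0.34, 3.41-fold, adjusted p = 4.61e-04) in Ldb1-KO and 0.92 (SE 0.38, adjusted p = 0.107) in Isl1-KO against WT. Without Isl1-KO replicate 4 the second was 1.18 (adjusted p = 0.0354), and without replicates 4 and 5 it was 1.21 (adjusted p = 0.0417). In the authors' deposited table the log2 fold change of Bmp3 in Isl1-KO was 1.19 with an FDR of 0.0352. The 3 shallower Ldb1-KO libraries held the highest Bmp3 values, 4.51 to 5.90, against 3.53 to 4.22 in the 5 deeper ones. In a bulk sample, fewer cells of a type and less RNA per cell cannot be told apart, here and in the results below.

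Gdf3, a GDF ligand that can signal through ALK7 and is singled out here after its values were seen, had lowest, median and highest values of 5.43, 6.20 and 6.95 in Ldb1-KO libraries. It was at 6.24, 4.81, 6.07, 6.45 and 6.30 in Isl1-KO and at 5.82, 5.38, 5.11, 0 and 5.31 in WT replicates 1 to 5. WT replicate 4 was thus at 0 while the other 17 libraries were at 4.81 or above. The difference from WT was 1.79 (SE 0.75, adjusted p = 0.104) in Ldb1-KO and 1.65 (SE 0.83, adjusted p = 0.199) in Isl1-KO. Without WT replicate 4 these were 0.70 in Ldb1-KO (adjusted p = 0.0939) and 0.57 in Isl1-KO (adjusted p = 0.255). The Ldb1-KO difference passed the threshold with a pseudocount of 10 (1.08, adjusted p = 0.0356), with the read step as a covariate (1.95, adjusted p = 0.0477) and among deeper libraries (0.89, adjusted p = 0.0138). Gdf15, a distant family member known as a stress-response hormone, was near the detection limit, above 0 in 4 of 8 Ldb1-KO libraries. WT replicates 1 to 5 were at 3.11, 2.80, 1.16, 0 and 2.55, so the groups overlapped. All 8 Ldb1-KO and all 5 Isl1-KO libraries lay below the WT mean. The difference was -1.39 in Ldb1-KO (SE 0.52, adjusted p = 0.0619) and -0.92 in Isl1-KO (adjusted p = 0.313). In the authors' deposited table the log2 fold change of Gdf15 in Ldb1-KO was -1.48 with an FDR of 0.0492. Inhba, the activin A subunit, averaged 1.26 ± 0.88 in Ldb1-KO (SD, n = 8), 1.18 ± 0.83 in Isl1-KO and 1.05 ± 0.67 in WT libraries (n = 5 each), and was not called. The differences of Gdf1, Gdf11 and Tgfb3 from WT ran from -1.002 to 0.71, and none was called.

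Of 5 tested type I receptors, 3 were called in each comparison with WT, 1 higher and 2 lower, beside 21.7% of all genes called in Ldb1-KO and 15.4% in Isl1-KO. Acvr1c encodes ALK7, a receptor for Nodal, activin B and GDF3 that is known from islets and fat. In Ldb1-KO libraries it ran from 4.82 over a median of 5.89 to 6.25. It was at 5.79, 5.82, 6.28, 5.87 and 5.70 in Isl1-KO and at 7.596, 8.36, 8.98, 8.75 and 8.14 in WT replicates 1 to 5. Every knockout library lay below every WT library. The difference was -2.66 in Ldb1-KO (95% interval -3.14 to -2.18, 6.33-fold lower, adjusted p = 7.84e-09) and -2.48 in Isl1-KO (-3.01 to -1.95, 5.56-fold lower, adjusted p = 3.20e-07). Both calls held under all 30 alternative settings, in which the adjusted p reached at most 1.39e-04 in Ldb1-KO and 0.0413 in Isl1-KO. The knockouts did not differ from each other by the test (-0.19, 95% interval -0.66 to 0.29, adjusted p = 0.647). Within WT, the 2 deeper libraries were the lowest, at 7.596 and 8.14.

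Bmpr1b, the BMP receptor ALK6, went the other way. Its lowest, median and highest values were 5.29, 5.93 and 7.19 in Ldb1-KO libraries, and it was at 5.54, 6.08, 5.59, 6.47 and 5.58 in Isl1-KO and 4.16, 4.64, 5.61, 4.39 and 3.91 in WT replicates 1 to 5. Only WT replicate 3 reached into the range of either knockout. The gene rose by 1.55 in Ldb1-KO (SE 0.29, 2.93-fold, adjusted p = 3.06e-04) and by 1.31 in Isl1-KO (SE 0.32, 2.48-fold, adjusted p = 0.00667). The 3 shallower Ldb1-KO libraries were at 6.46 to 7.19 and the 5 deeper at 5.29 to 5.96, and in WT the shallower were at 4.39 to 5.61 and the deeper at 3.91 and 4.16. Among the shallower libraries alone, the Isl1-KO rise was 1.04 (adjusted p = 0.0570).

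Tgfbr1 encodes ALK5, the type I receptor for TGF-β. It spanned 8.07 to 8.58 in Ldb1-KO libraries, with a median of 8.39. It was at 8.47, 8.43, 8.86, 8.30 and 8.69 in Isl1-KO and at 8.61, 9.18, 9.05, 9.08 and 8.91 in WT replicates 1 to 5. No Ldb1-KO library reached the lowest WT library, WT replicate 1, whereas Isl1-KO replicates 3 and 5 lay above it. In Ldb1-KO the fall was 0.58 on the log2 scale (difference -0.58, SE 0.13, adjusted p = 0.00141), and its difference within deeper libraries was -0.39 (adjusted p = 0.0889). In Isl1-KO it fell by 0.41 (SE 0.14, adjusted p = 0.0487), a call lost in 18 of 30 settings. Among these were leaving out Isl1-KO replicate 1, 2 or 4, WT replicate 2, 3, 4 or 5, or Ldb1-KO replicate 2, 4, 5, 6 or 7, the highest adjusted p of these being 0.114. Among the deeper libraries, which hold 1 of Isl1-KO, the difference had the other sign, 0.10 (adjusted p = 0.807).

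Bmpr1a, the BMP receptor ALK3, was not called against WT. It averaged 9.54 ± 0.13 in Ldb1-KO (SD, n = 8), 9.26 ± 0.06 in Isl1-KO and 9.43 ± 0.16 in WT libraries (n = 5 each). The interval of its difference from WT was -0.09 to 0.31 in Ldb1-KO and -0.39 to 0.06 in Isl1-KO. Acvr1b, the activin receptor ALK4, differed from WT by -0.37 in Ldb1-KO (adjusted p = 0.125) and by -0.24 in Isl1-KO (adjusted p = 0.433). Of the type II receptors Acvr2a, Acvr2b, Bmpr2 and Tgfbr2, 0 of 4 were called in either comparison by limma. Beside 21.7% of all genes called in Ldb1-KO and 15.4% in Isl1-KO, 0 of 4 does not set these receptors apart. By limma, 0 of the 4 had an unadjusted p under 0.05. The narrowest interval was that of Acvr2a, -0.16 to 0.39 in Ldb1-KO and -0.19 to 0.42 in Isl1-KO. Tgfbr2, which binds TGF-β directly, was above 0 in 6 of 8 Ldb1-KO, 3 of 5 Isl1-KO and 2 of 5 WT libraries, with a highest value of 2.55.

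Tgfbr3 encodes betaglycan, a co-receptor that presents TGF-β and inhibin. Values in Ldb1-KO libraries lay between 5.46 and 6.18, with a median of 5.72. It was at 5.71, 6.06, 6.23, 5.32 and 5.93 in Isl1-KO and at 6.38, 6.57, 6.62, 6.51 and 6.42 in WT replicates 1 to 5. Both knockouts lay wholly below WT, and WT was tight. Tgfbr3 fell 1.66-fold in Ldb1-KO (difference -0.73, SE 0.16, adjusted p = 0.00157) and by 0.65 in Isl1-KO (SE 0.18, 1.57-fold, adjusted p = 0.0151). Without Isl1-KO replicates 4 and 5 the second was -0.50 (adjusted p = 0.0618), and among deeper libraries -0.16 (adjusted p = 0.759). Among shallower libraries the Ldb1-KO difference was -0.71 (adjusted p = 0.0772).

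**Figure D3:**
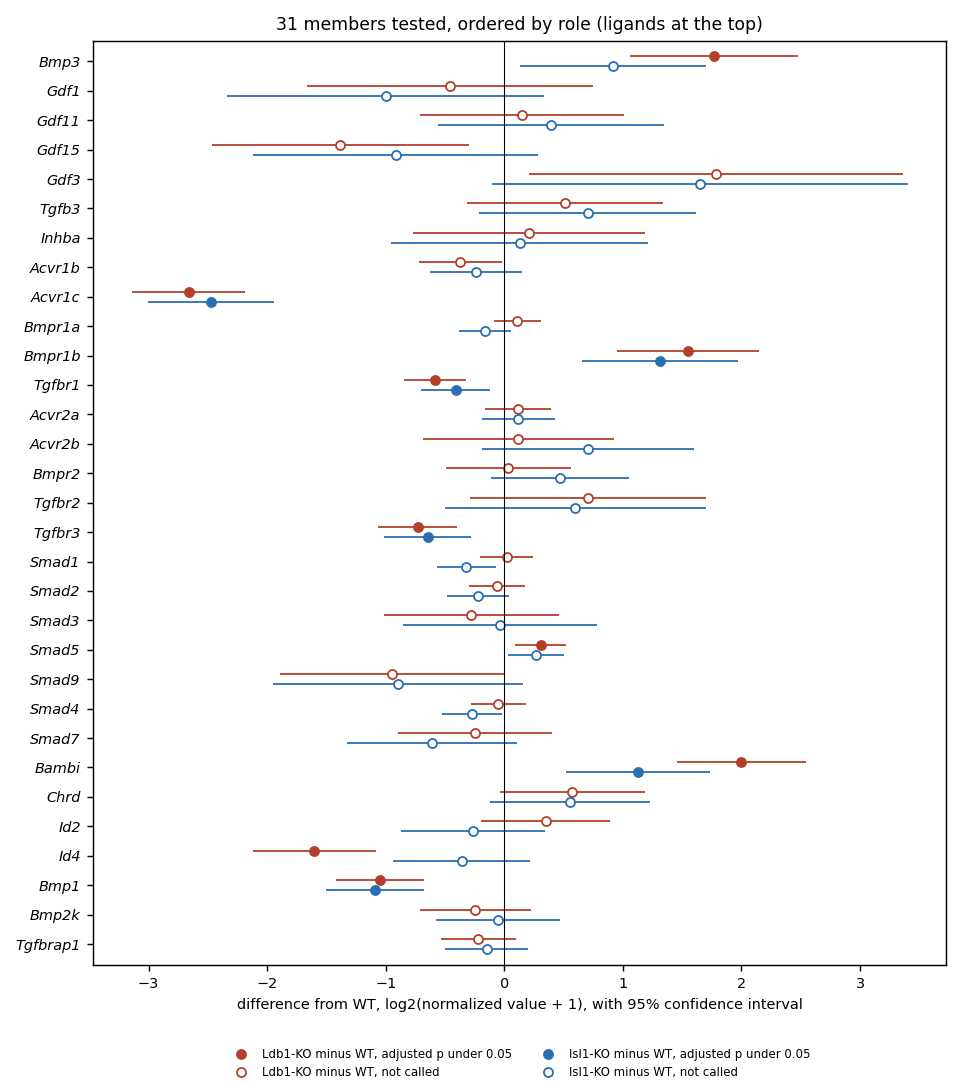
Difference from WT in log2(normalized value + 1), with its 95% confidence interval, for the 31 tested genes, ordered by role with ligands at the top; Ldb1-KO in red above Isl1-KO in blue, filled where the adjusted p was under 0.05. Acvr1c lies furthest to the left in both, at -2.66 in Ldb1-KO and -2.48 in Isl1-KO, and Bambi furthest to the right of the called genes in Ldb1-KO, at 1.999.

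Over all genes tested, 21.7% were called against WT in Ldb1-KO and 15.4% in Isl1-KO. Of 7 tested SMAD genes, Smad5, a BMP-responsive SMAD, was the only one called against WT, and in Ldb1-KO alone. Its lowest, median and highest values were 8.76, 9.05 and 9.20 in Ldb1-KO libraries. It was at 9.04, 9.04, 8.97, 8.91 and 8.94 in Isl1-KO and at 8.41, 8.88, 8.77, 8.81 and 8.69 in WT replicates 1 to 5. WT replicate 1 was the lowest of all libraries, 2 Ldb1-KO libraries lay within the WT range, and Isl1-KO did not overlap WT. The rise was 0.31 in Ldb1-KO (SE 0.10, 1.24-fold, adjusted p = 0.0368), and the Isl1-KO difference was 0.27 (SE 0.12, adjusted p = 0.125). The call was lost in 13 of 30 settings. Those that leave out 1 library were WT replicate 1 (0.23, adjusted p = 0.144), WT replicate 5, and Ldb1-KO replicate 1, 2, 3, 4, 6 or 7, each of the last 7 with an adjusted p between 0.0503 and 0.0768. In the authors' deposited table the log2 fold change of Smad5 was 0.22 in Ldb1-KO, with an FDR of 0.585.

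Smad4, the partner of all receptor-regulated SMADs, averaged 8.37 ± 0.19 in Ldb1-KO (SD, n = 8), 8.15 ± 0.14 in Isl1-KO and 8.43 ± 0.14 in WT libraries (n = 5 each). Its difference from WT was -0.05 (95% interval -0.28 to 0.18) in Ldb1-KO and -0.27 (-0.53 to -0.02, adjusted p = 0.145) in Isl1-KO. The differences of Smad1, Smad2, Smad3, Smad7 and Smad9 from WT ran from -0.95 to 0.02, and none was called. Smad1 in Isl1-KO, at -0.32 (adjusted p = 0.0709), passed the threshold with no filter on low values (adjusted p = 0.0245). It also passed without Isl1-KO replicates 4 and 5 (adjusted p = 0.0357), without Isl1-KO replicate 5 and without WT replicate 3. Smad7, the inhibitory SMAD that passed the filter, differed by -0.25 in Ldb1-KO (adjusted p = 0.633) and by -0.61 in Isl1-KO (adjusted p = 0.254).

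Bambi had the largest rise among the called genes in Ldb1-KO. It encodes a pseudoreceptor that resembles a type I receptor but lacks the kinase domain, and it dampens TGF-β, activin and BMP signals. Its lowest, median and highest values were 8.41, 9.22 and 9.75 in Ldb1-KO libraries. It was at 7.61, 7.94, 7.94, 8.78 and 9.11 in Isl1-KO and at 7.74, 7.25, 6.64, 6.61 and 7.50 in WT replicates 1 to 5. All Ldb1-KO libraries lay above all WT libraries, while Isl1-KO replicate 1 lay below WT replicate 1. Bambi rose by 1.999 in Ldb1-KO (SE 0.26, 4.0-fold, adjusted p = 7.43e-06), a call held in all 30 settings. In Isl1-KO it rose by 1.13 (SE 0.29, 2.18-fold, adjusted p = 0.0114). Isl1-KO replicates 4 and 5 were the highest of their group, and without both the difference was 0.68 (adjusted p = 0.0856). Within Ldb1-KO and within WT, Bambi was higher in deeper libraries, at 9.18 to 9.75 against 8.41 to 9.01 in the shallower of Ldb1-KO, and at 7.50 and 7.74 against 6.61 to 7.25 in the shallower of WT. Among deeper libraries alone the difference of the single Isl1-KO library from WT was 0.32 (adjusted p = 0.422). Chordin (Chrd), a secreted BMP antagonist, differed from WT by 0.57 in Ldb1-KO (adjusted p = 0.181) and by 0.55 in Isl1-KO (adjusted p = 0.274). Nog and Grem1, which also bind BMPs outside the cell, were above 0 in 4 and 2 of 18 libraries and were not tested.

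The Id genes encode dominant-negative partners of basic helix-loop-helix factors. Id4 was called in Ldb1-KO and not in Isl1-KO. Its lowest, median and highest values were 3.45, 4.01 and 5.06 in Ldb1-KO libraries. It was at 5.29, 4.68, 4.91, 5.87 and 5.74 in Isl1-KO and at 5.75, 5.51, 5.64, 6.03 and 5.34 in WT replicates 1 to 5. All Ldb1-KO libraries were below all WT libraries, with replicate 3 the highest of them, and Isl1-KO overlapped both. In Ldb1-KO the difference of Id4 was -1.604 (SE 0.25, 3.04-fold, adjusted p = 3.93e-05), a call held in all 30 settings. The Isl1-KO difference was -0.36 (SE 0.28, adjusted p = 0.422), and 0.15 without Isl1-KO replicates 1 to 3. Id2 averaged 5.33 ± 0.47 in Ldb1-KO (SD, n = 8), 4.72 ± 0.53 in Isl1-KO and 4.98 ± 0.50 in WT libraries (n = 5 each) and was not called against WT. Id3 was above 0 in 3 of 18 libraries, and Id1 was listed at 0 in each, where a true zero and a failed estimate cannot be told apart.

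Bmp1 is named like the ligands but is not one: it is an astacin-family metalloprotease that cleaves procollagens and, in development, chordin. In Ldb1-KO libraries its lowest value was 7.17, its median 7.90 and its highest 8.38. It was at 7.90, 7.83, 7.74, 7.64 and 7.96 in Isl1-KO and at 9.15, 9.26, 8.62, 8.54 and 8.97 in WT replicates 1 to 5. Neither knockout overlapped WT. Bmp1 fell 2.07-fold in Ldb1-KO (difference -1.05, SE 0.18, adjusted p = 1.23e-04) and by 1.09 in Isl1-KO (SE 0.20, 2.13-fold, adjusted p = 5.41e-04), and both calls held in all 30 settings. Bmp2k and Tgfbrap1 differed from WT by -0.24 to -0.05, and neither was called.

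Set directly against Isl1-KO, Ldb1-KO differed in 3 of the 31 genes (9.68%), beside 13.3% of all genes. It was higher for 2 of them, beside 6.96% of all genes, and lower for 1, beside 6.31%. The groups overlapped for each of the 31, whereas 4.78% of all genes had groups that did not overlap. Id4 was lower in Ldb1-KO by 1.24 on the log2 scale (difference -1.24, SE 0.25, adjusted p = 0.00195). That call was lost only within the deeper libraries (-1.0, adjusted p = 0.0985) and within the shallower (-1.10, adjusted p = 0.0704). Bambi was higher in Ldb1-KO by 0.87 (SE 0.26, adjusted p = 0.0316). Against the higher Isl1-KO replicates 4 and 5 alone, that is without replicates 1 to 3, its difference was 0.20 (adjusted p = 0.817). Leaving out Isl1-KO replicate 1, 2 or 3, or Ldb1-KO replicate 5, 6, 7 or 8, also ended the call, with an adjusted p of 0.0523 to 0.109. In all it was lost in 12 of 30 settings, among them the shallower libraries alone (0.34, adjusted p = 0.540) and no filter on low values (adjusted p = 0.0989).

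The third gene was Smad1, another BMP-responsive SMAD, named after its values were seen. It was at 7.22 to 7.54 in Ldb1-KO libraries, with a median of 7.38, against 7.04, 6.87, 6.97, 7.05 and 7.26 in Isl1-KO replicates 1 to 5. Isl1-KO replicate 5 reached into the Ldb1-KO range and the other 4 lay below it. Between the knockouts the difference was 0.34 (SE 0.11, 1.27-fold, adjusted p = 0.0373). It was lost in 13 of 30 settings, among them leaving out Isl1-KO replicate 1, 2 or 3, or Ldb1-KO replicate 2, 3, 4 or 5, the highest adjusted p of these being 0.106. Without Isl1-KO replicates 1 to 3 the difference of Smad1 was 0.23 (adjusted p = 0.501), and among deeper libraries 0.37 (adjusted p = 0.253). Bmp3 differed by 0.85 between the knockouts (adjusted p = 0.102), so its call in Ldb1-KO alone does not show that the knockouts differ. With the read step as a covariate that difference was 1.02 (adjusted p = 0.0243).

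Other genes of the pathway, 92 in the table and 58 tested, were divided by role. In Ldb1-KO against WT 8 were higher and 10 lower (31% called, beside 21.7% of all genes), and in Isl1-KO 5 were higher and 5 lower (17.2%, beside 15.4%). Their median difference from WT was 0.03 in Ldb1-KO, against -0.01 over all genes, and -0.00843 in Isl1-KO, against -0.03 over all genes. Genes that process ligands or release latent TGF-β went in both directions: of 10 tested, 2 were higher and 3 lower in Ldb1-KO, and 1 was higher and 2 lower in Isl1-KO. Thbs1, thrombospondin 1, which can activate latent TGF-β, had lowest, median and highest values of 7.97, 8.15 and 8.53 in Ldb1-KO libraries. It was at 6.29, 7.95, 7.53, 7.75 and 6.86 in Isl1-KO and at 4.40, 4.16, 4.75, 4.90 and 3.69 in WT replicates 1 to 5. The 3 groups did not overlap at all. Thbs1 rose by 3.82 in Ldb1-KO (SE 0.23, 14.1-fold, adjusted p = 2.59e-11) and by 2.89 in Isl1-KO (SE 0.26, 7.43-fold, adjusted p = 2.65e-08). It was higher in Ldb1-KO than in Isl1-KO by 0.92 (adjusted p = 0.00939), and by 0.90 (adjusted p = 0.0780) without Isl1-KO replicates 1 to 3.

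Integrin subunits that activate latent TGF-β did not move together. Itgb6 averaged 3.72 ± 0.51 in Ldb1-KO (SD, n = 8), 1.6 ± 0.97 in Isl1-KO and 1.02 ± 1.17 in WT libraries (n = 5 each). It was at 0, 2.56, 1.51, 1.90 and 2.04 in Isl1-KO and at 2.83, 0, 0, 1.32 and 0.94 in WT replicates 1 to 5. Itgb6 was thus at or near the detection limit in WT replicates 2 to 5 and low in Isl1-KO libraries. It rose by 2.70 in Ldb1-KO (SE 0.46, adjusted p = 1.07e-04), was not called in Isl1-KO (0.58, adjusted p = 0.491), and differed by 2.12 between the knockouts (adjusted p = 0.00339), or by 1.75 (adjusted p = 0.131) without Isl1-KO replicates 1 to 3. Its partner Itgav had a difference of -0.79 in Ldb1-KO (1.72-fold lower, adjusted p = 2.09e-05) and fell by 0.65 in Isl1-KO (SE 0.13, adjusted p = 0.00120), where the single deeper Isl1-KO library differed from the deeper WT libraries by -0.20 (adjusted p = 0.545). Itgb8, the other partner, fell 2.45-fold in Ldb1-KO (difference -1.29, SE 0.35, adjusted p = 0.00917) and by 1.78 in Isl1-KO (SE 0.39, adjusted p = 0.00272). With the shallower libraries alone the Ldb1-KO difference of Itgb8 was -0.49 (adjusted p = 0.545). Pcsk6, a convertase that cleaves ligand precursors, had a difference of -1.22 in Ldb1-KO (2.32-fold lower, adjusted p = 2.95e-04), and its Isl1-KO difference was -0.54 (adjusted p = 0.15).

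Of 7 tested antagonists outside the list of names, 3 were higher and 3 lower in Ldb1-KO, and 2 higher and 0 lower in Isl1-KO. The shares over all 13501 tested genes were 10.6% higher and 11.0% lower for Ldb1-KO, and 7.02% higher and 8.39% lower for Isl1-KO. The follistatin-like gene Fstl5 rose by 1.99 (SE 0.49, adjusted p = 0.00425) in Ldb1-KO and by 2.63 (SE 0.54, adjusted p = 0.00152) in Isl1-KO. Crim1, which tethers BMPs at the cell surface, rose by 1.27 in Ldb1-KO (adjusted p = 0.00394) and by 1.24 in Isl1-KO (adjusted p = 0.0158), the second with an adjusted p of 0.0502 without WT replicate 2. Twsg1, a BMP-binding protein that works with chordin, was called in Ldb1-KO alone (0.77, SE 0.11, adjusted p = 1.72e-05), and the knockouts differed by 0.45 (adjusted p = 0.00923), or by 0.50 (adjusted p = 0.106) without Isl1-KO replicates 1 to 3 and by 0.38 (adjusted p = 0.0545) with the replicate number as a block. Dand5, a Nodal antagonist, fell by 0.91 in Ldb1-KO (adjusted p = 0.00821), with a difference of -0.50 in Isl1-KO (adjusted p = 0.230).

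Among 24 tested SMAD regulators, 2 were higher and 1 lower in each knockout against WT (12.5% called, below the 21.7% of all genes in Ldb1-KO and the 15.4% in Isl1-KO). Nedd4l, a ubiquitin ligase that acts on activated SMADs, rose by 0.62 in Ldb1-KO (adjusted p = 0.00240) and by 0.60 in Isl1-KO (adjusted p = 0.0122). Without Isl1-KO replicates 1 to 3 the second was 0.25 (adjusted p = 0.482). Tob1, an antiproliferative protein that represses BMP-activated SMADs, lay between 7.89 and 8.66 in Ldb1-KO libraries. It was at 8.21, 8.25, 8.11, 8.03 and 8.03 in Isl1-KO and at 7.84, 7.73, 7.07, 7.48 and 7.87 in WT replicates 1 to 5. Both knockouts lay wholly above WT, and Tob1 rose by 0.56 in Ldb1-KO (adjusted p = 0.00693) and by 0.53 in Isl1-KO (adjusted p = 0.0289). Among the deeper libraries alone the differences of Tob1 were 0.20 (adjusted p = 0.399) and 0.26 (adjusted p = 0.484). Its Isl1-KO call was also lost without Isl1-KO replicate 1 or 2 or WT replicate 3 or 4, the highest adjusted p being 0.0872, and was 0.43 (adjusted p = 0.298) without Isl1-KO replicates 1 to 3. In the authors' deposited table the FDR of Tob1 was 0.130 in Ldb1-KO and 0.491 in Isl1-KO. Ctdsp1, a phosphatase of the SMAD linker, fell by 0.54 in Ldb1-KO (adjusted p = 0.0208) and by 0.57 in Isl1-KO (adjusted p = 0.0410). The Ldb1-KO call of Ctdsp1 was lost without WT replicate 1 (adjusted p = 0.0510) or 2 (0.0701). Its Isl1-KO call was lost without Isl1-KO replicate 1 or 4 or WT replicate 1, 2, 4 or 5, the highest adjusted p being 0.110.

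Of 13 tested target genes, 1 rose and 3 fell in Ldb1-KO, and 0 rose and 2 fell in Isl1-KO. This is 30.8% called in Ldb1-KO, beside 21.7% of all genes, and 15.4% in Isl1-KO, the same share as of all genes. By limma, 3 of the 13 had an unadjusted p under 0.05 in Isl1-KO. Tgfbi, named for its induction by TGF-β, was at 0 in 6 of 8 Ldb1-KO libraries and reached 1.03. It was at 0, 1.49, 0, 2.23 and 0 in Isl1-KO and at 1.32, 1.82, 4.28, 4.84 and 3.15 in WT replicates 1 to 5. The knockout libraries were thus at or near the detection limit, and the group difference was -2.83 (adjusted p = 4.21e-04) in Ldb1-KO and -2.34 (adjusted p = 0.0101) in Isl1-KO, or -1.96 (adjusted p = 0.169) without Isl1-KO replicates 1 to 3. Cdkn2b, a cell cycle inhibitor induced by TGF-β, had a difference of -0.65 in Ldb1-KO (1.57-fold lower, adjusted p = 0.0223) and fell by 1.72 in Isl1-KO (SE 0.22, adjusted p = 7.91e-06). The Ldb1-KO call had an adjusted p of 0.0623 without WT replicate 3 and 0.0707 without WT replicate 5. Cdkn2b was higher in Ldb1-KO than in Isl1-KO by 1.07 (adjusted p = 0.00106), or by 0.82 (adjusted p = 0.0715) without Isl1-KO replicates 1 to 3. The target gene that rose in Ldb1-KO was Zeb1, a transcriptional repressor named after its values were seen (0.57, SE 0.15, adjusted p = 0.00690, or 0.120 among shallower libraries alone and 0.0625 in the authors' deposited table). Its Isl1-KO difference was 0.44 (adjusted p = 0.0747, or 0.0431 without WT replicate 3).

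**Figure D4:**
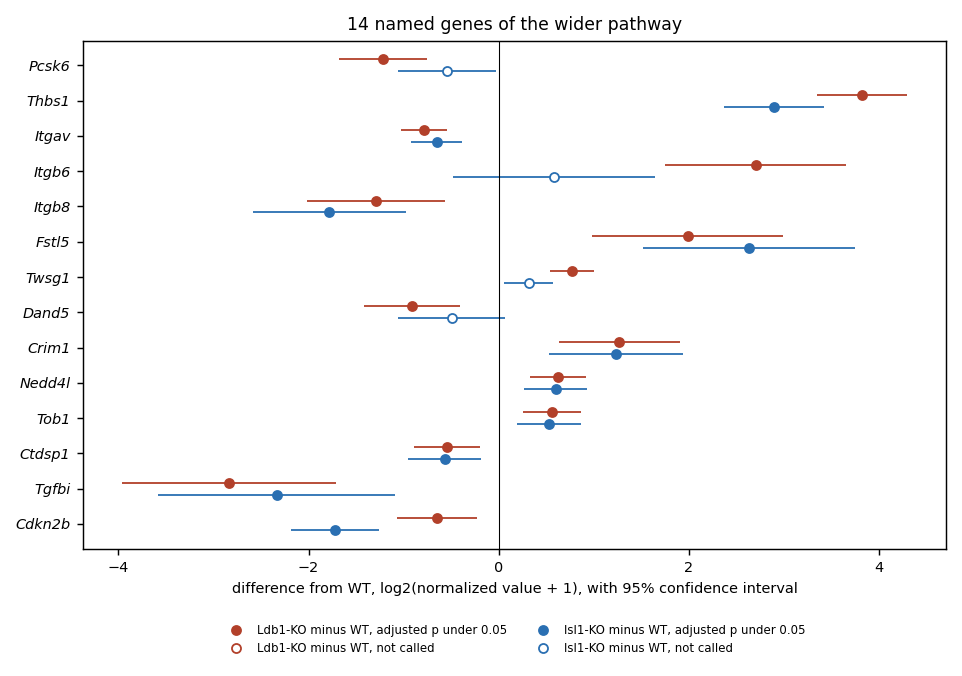
Difference from WT in log2(normalized value + 1), with its 95% confidence interval, for 14 pathway genes outside the name-based list; Ldb1-KO in red above Isl1-KO in blue, filled where the adjusted p was under 0.05. Thbs1 lies furthest to the right, at 3.82 in Ldb1-KO and 2.89 in Isl1-KO, and Tgfbi furthest to the left, at -2.83 in Ldb1-KO and -2.34 in Isl1-KO.

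Between the knockouts, 5 of these 58 genes were higher in Ldb1-KO and 0 lower by limma (8.62% called, beside 13.3% of all genes, with 16 at an unadjusted p under 0.05 in either direction). The 5 were Cdkn2b, Itgb6, Twsg1, Thbs1 and Cyr61, a matricellular target gene named after its values were seen (1.57, SE 0.50, adjusted p = 0.0409). Cyr61 was near the detection limit in Isl1-KO libraries, at 2.19, 0.94, 0, 1.49 and 2.04 in replicates 1 to 5. The call of Cyr61 was lost without Ldb1-KO replicate 1, 2, 3, 6, 7 or 8 or Isl1-KO replicate 2 or 3, the highest adjusted p of these being 0.148, and its difference was 1.14 (adjusted p = 0.465) without Isl1-KO replicates 1 to 3.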

How the data were processed

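RNA of 18 libraries was taken from the authors' deposited table, which gives 1 log2 value per gene symbol and library. Its normalization is not stated in the labels. The lowest value is 0 and the top value, 18.29, is the same in all libraries, from which the values were taken to be log2(quantile-normalized value + 1), an inference. The same table holds the authors' own log2 fold change, p-value and FDR for each comparison. HOMER, edgeR and build mm9 are named in the submitters' processing notes; the aligner and the read counter were not given in the sources used here. Quantile normalization leaves no library totals, so depth is unknown in reads. The normalized value of 1 read step, from the first 20 distinct values, was 0.714 to 1.45, and libraries under 1 were called deeper. The libraries had 13353 to 14129 genes above 0.

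Groups came from sample titles. All 18 libraries were fitted together with limma 3.58.1 in R 4.3.3 (trend and robust settings, statmod 1.5.0) on log2(value + 1), with Benjamini-Hochberg adjustment over 13501 genes and a threshold of 0.05. Fold changes on this scale understate those of low genes. The code was tested on simulated data. The genes, the lists of pathway and marker genes and the tests were chosen with earlier results of these data known. Named are every gene called against WT, a few fixed genes (1 not analysed here), and, of the wider pathway (1 listed gene is not reported here and is left out of its counts), up to 5 called genes with the smallest p per direction in each comparison with WT. The alternatives changed the filter, pseudocount, moderation, libraries, block and depth. The LDB1 and ISL1 peak lists of whole islets, in mm9, were not used here, since no gene positions in that build were at hand.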

Additional observations from a re-analysis of the deposited data

Results flagged for a closer look

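In 8 of 99 groups of libraries, 1 value lay far from the others of its group, judged by its gap to the nearest value as a share of the group's range. Chance flags about 1 in 20 groups. Gdf3 was at 0 in WT replicate 4, with the nearest WT library at 5.11, and at 4.81 in Isl1-KO replicate 2, with the nearest at 6.07. Acvr1c was at 6.28 in Isl1-KO replicate 3, above the next library at 5.87 and still below every WT library. Itgb8 was at 4.15 in WT replicate 4, with the nearest at 5.41. Itgav was at 10.79 in WT replicate 1, with the nearest at 11.004. Twsg1 was at 11.36 in Isl1-KO replicate 2, above the next at 11.13. The targeted gene Ldb1 was at 7.11 in WT replicate 4, below the next WT library at 7.57 and above the highest Ldb1-KO library at 6.88. Cyr61 was at 0 in WT replicate 3, with the nearest WT library at 1.82. Of the 8 values, 3 belong to WT replicate 4.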

How the results depend on the processing

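Of the 9 calls in Ldb1-KO against WT, those of Acvr1c, Bambi, Bmp1, Bmp3, Bmpr1b and Id4 held in all 30 alternatives, and so did those of Acvr1c and Bmp1 in Isl1-KO. Tgfbr1 in Isl1-KO changed sign among the deeper libraries (0.10). Leaving out 1 library at a time gave 3 to 4 genes higher and 5 to 6 lower in Ldb1-KO against WT, 2 to 3 higher and 3 to 5 lower in Isl1-KO against WT, and 0 to 2 higher and 1 lower in Ldb1-KO against Isl1-KO. For the wider pathway it gave 8 to 9 higher and 7 to 10 lower in Ldb1-KO against WT, 4 to 6 higher and 4 to 5 lower in Isl1-KO against WT, and 4 to 6 higher and 0 to 3 lower between the knockouts.

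In Isl1-KO against WT, 1 gene was higher, in place of 2, among the deeper or among the shallower libraries. In the wider pathway, 3 genes in place of 10 were lower in Ldb1-KO among shallower libraries, 2 in place of 5 were higher in Isl1-KO among deeper libraries and 3 among shallower libraries, without Isl1-KO replicates 1 to 3 and in the authors' table, and 3 in place of 5 were lower in Isl1-KO without its replicates 1 to 3. Between the knockouts the count of genes higher in Ldb1-KO, 2, became 1 without trend and robust settings, with only the groups compared, among deeper libraries and in the authors' deposited table. It became 0 among shallower libraries and without Isl1-KO replicates 1 to 3, and 5 with the read step as a covariate. The count lower, 1, became 0 among deeper libraries. For the wider pathway the count higher, 5, became 3 among shallower libraries and 0 without Isl1-KO replicates 1 to 3. The count lower, 0, became 1 without trend and robust settings, with only the groups compared, among shallower libraries, without Isl1-KO replicates 1 to 3 and in the authors' table. It became 2 with a pseudocount of 10, 3 with a minimum of 5, with the covariate and among deeper libraries, and 5 without Isl1-KO replicates 4 and 5. The cause was not tested; the deeper and shallower sets hold fewer libraries, and the lone deeper Isl1-KO library was assumed to vary like the others.

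Over 15 pairs of libraries with the same replicate number in 2 groups, the correlation ran from -0.17 to 0.26, and 4 exceeded 0.1. These were not set against pairs of different numbers, so they do not decide whether the shared numbers pair libraries. With the replicate block, the counts in Ldb1-KO against WT were 3 higher and 5 lower, in Isl1-KO against WT 2 higher and 4 lower, and between the knockouts 0 higher and 1 lower. For the wider pathway they were 10 higher and 8 lower in Ldb1-KO, 6 higher and 4 lower in Isl1-KO, and 3 higher and 2 lower between the knockouts. Of the calls named in the text, the block ended those of Smad5, Itgb8 and Cdkn2b in Ldb1-KO, Ctdsp1 in Isl1-KO, and Bambi, Smad1, Twsg1 and Cyr61 between the knockouts.

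Of the 56 genes, 25 fell below the filter on low values and were not tested; for these, low and absent expression cannot be told apart at this depth. The counts of genes near a peak were not run.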
